A study of Mus musculus with 31 samples.

Results

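The 59 genes described here encode subunits of respiratory chain complexes I to IV that are made from nuclear DNA. They were chosen by symbol and not by any measured value, and all 59 were found among the 41255 gene symbols of both tables. Complex I contributed 35 genes, complex II 4, complex III 9 and complex IV 11, with Ndufa4 counted in complex IV. All 59 passed the filter on low values in both fractions, a mean of at least 10 normalized counts.

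The libraries came from Ba/F3 cells, a mouse pro-B cell line that needs interleukin-3 to grow. All clones carried a retroviral human RPL10 cDNA, either wild type (WT) or with the R98S mutation found in T-cell leukemia, and in all of them, the WT controls included, the mouse Rpl10 gene was knocked down with a short hairpin RNA. Each genotype was represented by 3 monoclonal cultures, R98S clones 11, 13 and 35 and WT clones 28, 29 and 36, and the libraries carry replicate numbers 1 to 3, with some combinations of clone, number and fraction not analysed here. On polysomes WT clone 36 had only number 3, WT clone 28 lacked number 1 and R98S clone 11 lacked number 2. Total mRNA was measured in 9 R98S and 8 WT libraries, and polysomal RNA, from pooled gradient fractions holding mRNAs with 2 or more ribosomes, in 8 R98S and 6 WT libraries, and 14 cultures had both. The comparison asks which mRNAs differ in level, and which in their loading on ribosomes, when the ribosome carries RPL10 R98S. Clones may differ for reasons other than genotype, so the p-values measure the spread between these libraries.

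Oxidative phosphorylation (OXPHOS) is carried out in the inner mitochondrial membrane. Complex I oxidises NADH and complex II oxidises succinate, both pass electrons through ubiquinone to complex III, and cytochrome c carries them on to complex IV, which reduces oxygen. A few core subunits are made inside the mitochondrion, while the genes described here are transcribed in the nucleus, translated on cytosolic ribosomes and imported. Their promoters are known to be bound by NRF1, by ETS factors of the GABP kind and by YY1, and most of the subunits are short proteins.

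Promoters of 300 bases, from 250 before to 50 after the transcription start, were matched for 49 of the 59 genes in RefSeq (GRCm38.p6). The letters GCATGCG (NRF1 core) were present on either strand in 7 of the 49 (14.3%, against 3.64% of all 27025 mouse promoters). CCGGAAG (ETS core) was present in 11 (22.4% against 9.12%) and AAGATGG (YY1 core) in 8 (16.3% against 6.48%). At least 1 of the 3 motifs was present in 23 of the 49 (46.9% against 17.7%), and some promoters held more than 1. A match describes the letters in the window and not a bound site. The windows that follow, with the motif in capitals, belong to genes on which the results turn: Ndufa6 is the complex I gene with the largest decrease in total mRNA, Ndufb6 and Uqcrh were higher, Sdhd was lower on polysomes, Cox7c and Ndufs4 had some of the largest differences between replicate numbers, Uqcrc1 one of the smallest, and Sdhb holds 2 motifs. The windows lie at chr15:82354358-82354384 on the minus strand for Ndufa6, chr4:40279637-40279663 on the plus strand for Ndufb6 (opposite to the gene), chr13:114388045-114388069 on the minus strand for Ndufs4, chr4:140961207-140961233 and chr4:140961267-140961293 on the plus strand for Sdhb, chr9:50603879-50603905 on the plus strand for Sdhd (opposite to the gene), chr9:108936670-108936696 on the plus strand for Uqcrc1, chr4:116075064-116075090 on the plus strand for Uqcrh (opposite to the gene) and chr13:86046781-86046807 on the plus strand for Cox7c (opposite to the gene).
Ndufa6, NRF1 core: ccgcggtagaGCATGCGcattgcagag
Ndufb6, ETS core: ggggaggggaCCGGAAGaacaaggacg
Ndufs4, YY1 core: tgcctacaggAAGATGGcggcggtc
Sdhb, NRF1 core: agcccagtggGCATGCGccctacgggc
Sdhb, ETS core: ctcggagaaaCCGGAAGcggccttcca
Sdhd, ETS core: gaagcgtgaaCCGGAAGgcaggagacg
Uqcrc1, NRF1 core: tccgctctgcGCATGCGcagcgcggct
Uqcrh, ETS core: ggcgacctggCCGGAAGtgcggcatac
Cox7c, YY1 core: accgaaagggAAGATGGgagttacaac

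The libraries held 8831180 to 22059792 reads. The study left out the total mRNA library of WT clone 36 with number 1 on account of its profile, and it was not analysed here, so the genotype comparison in total mRNA is conditional on that selection. Rpl10 itself is no clean check of the labels, since the human cDNA can supply reads for it, and it ranged from 620.3 to 5715 normalized counts in total mRNA. On a scale where the WT mean over all genes is 0 and the R98S mean is 1, the total mRNA libraries of R98S clones 13 and 35 with number 2 stood at 0.579 and 0.596, and the other R98S libraries at 0.936 to 1.16. Of 12 B-lineage markers 6 passed the filter in total mRNA, and 3 of those were higher and 1 lower in R98S (median 0.51, against 14.5% and 15.8% of all genes called), with 3 higher and 0 lower on polysomes (median 0.78, against 7.66% and 5.87%). Their summed level was 110175 to 222360 normalized counts in R98S and 56844 to 102239 in WT in total mRNA, nearly all of it from Csf2rb and Csf2rb2, subunits of the interleukin-3 receptor, while the B-cell genes Ebf1 and Pax5 reached at most 1.00 in any library. Of 14 markers of other blood and stromal cells 3 passed the filter in total mRNA, with 0 called (0 at an unadjusted p under 0.05 by limma) and 1 lower with the block, Klf1, at -0.54 (adjusted p = 0.0424). On polysomes 1 of 2 that passed was lower, Cd3e, by a log2 difference of -0.52 (adjusted p = 0.0898, and 0.0252 with the block). In total mRNA the summed level of the 13 found in the tables was 209.7 to 1260.2 in R98S and 320.4 to 1884 in WT. The part of these markers in the results was not tested. In bulk RNA, fewer cells of a kind and less RNA per cell cannot be told apart.

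In total mRNA the OXPHOS subunit genes moved in both directions, and only a minority differed between the genotypes. Of the 59, 14 passed limma's test at an adjusted p under 0.1, 9 of them higher and 5 lower in R98S. This is 23.7% of the genes, beside 30.3% called among all 11133 genes tested (14.5% higher and 15.8% lower). The median log2 difference, R98S minus WT, was 0.08 (0.00 over all genes), and 40 of 59 lay above 0. The 45 genes that were not called ranged from -0.24 to 0.29. With the replicate number as a block 19 were called, 11 higher and 8 lower (38.4% of all genes, 18.5% higher and 19.9% lower), which included all 14. The block added Ndufb10 and Ndufc2, accessory subunits of complex I, as higher, and Ndufa4, Ndufa11 and Cox7a2 as lower.

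**Figure D1:**
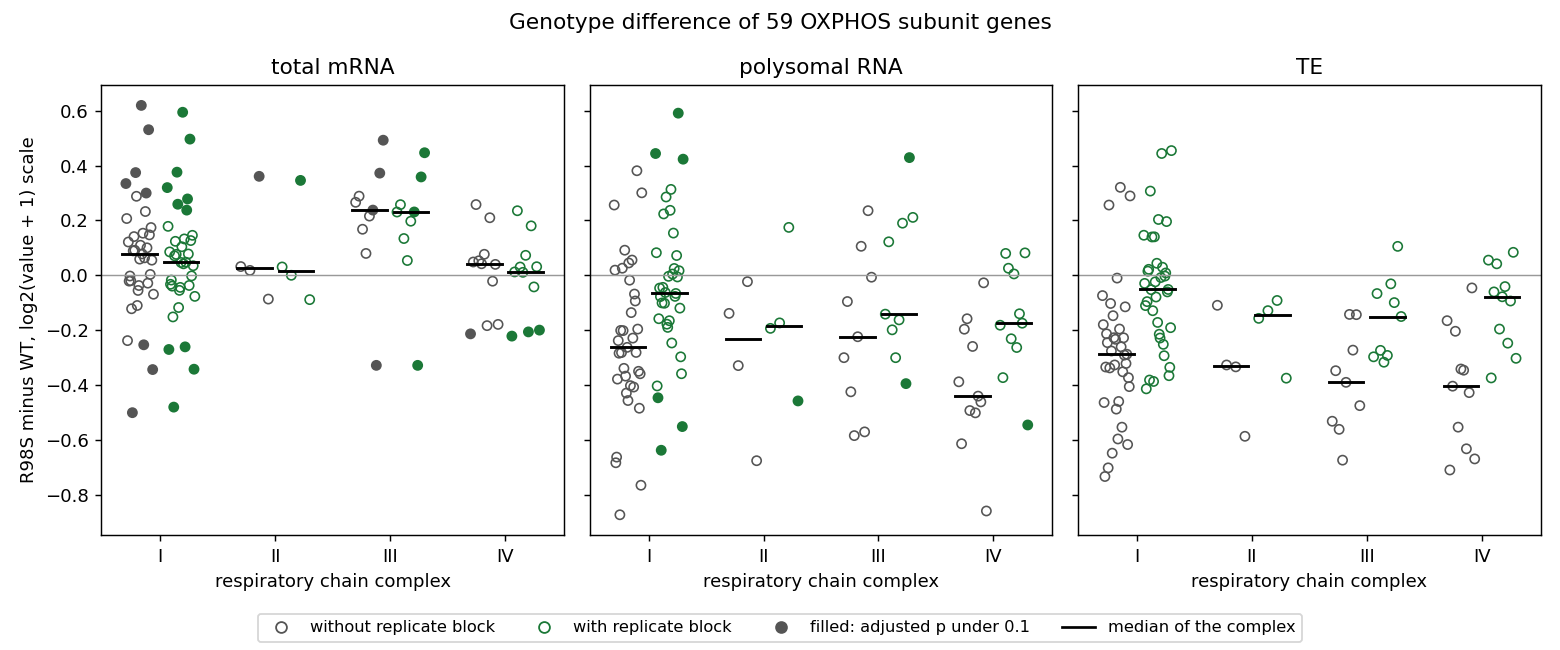
Each point is 1 of the 59 genes, plotted as the difference R98S minus WT on the log2(value + 1) scale, by complex, in total mRNA, polysomal RNA and TE, the polysomal to total ratio. Grey points are without and green points with the replicate block, filled points have an adjusted p under 0.1, bars are medians of a complex, and filled grey points appear only in total mRNA.

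By complex, complex III had the highest median difference in total mRNA. Complex I had 5 higher and 3 lower of 35 with a median of 0.08, complex II had 1 higher of 4 with a median of 0.02, complex III had 3 higher and 1 lower of 9 with a median of 0.24, and complex IV had 1 lower of 11 with a median of 0.04. With the block the medians were 0.05, 0.01, 0.23 and 0.01. Within numbers 1, 2 and 3 the median difference of the 59 genes was -0.15, 0.07 and 0.23, so the sign of the median turned in number 1. No gene had an interaction of genotype and number that passed (0 of 59, and 0% of all genes). By limma 6 of 59 had an unadjusted p under 0.05 for it (480 of all 11133 genes). The median standard error of a single gene was 0.12.

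The genes of the NADH-oxidising module of complex I, the part that takes electrons from NADH, differed among themselves in total mRNA. Ndufv2 (chr17:66078638-66101559, minus strand, GRCm38), an iron-sulfur core subunit, had 1994, 2281 and 2893 normalized counts (lowest, median and highest) in R98S and 2691, 2894 and 3245 in WT. Only 1 R98S library, clone 13 with number 2, reached into the WT range. The log2 difference was -0.34 (SE 0.08, adjusted p = 0.00305). Ndufs1, the largest core subunit, had 1774, 2341 and 2871 in R98S and 1379.8, 1869.8 and 2314 in WT. The groups overlapped, with 5 of 9 R98S libraries above all WT libraries, and the difference was 0.30 (SE 0.13, adjusted p = 0.0944). Ndufv1, which binds NADH and flavin, differed by 0.05 (adjusted p = 0.781).

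Lower accessory subunits of complex I in R98S were Ndufa6 and Ndufb9, both proteins of the LYR family that dock the acyl carrier protein. Ndufa6 (chr15:82350140-82354322, minus strand) had 1802, 2090.3 and 2460.2 normalized counts in R98S and 2283, 3149 and 3918 in WT. The lowest WT library was above 6 of the 9 R98S libraries, and the log2 difference was -0.50 (SE 0.11, adjusted p = 0.00352), the largest decrease among the 59. Ndufb9 had 1572, 1913 and 2137 in R98S and 1982, 2165 and 2433 in WT. The WT range began above 8 of the 9 R98S libraries, and Ndufb9 differed by -0.25 (SE 0.07, adjusted p = 0.0197). Exons of Ndufb9 overlap another gene model on the same strand over 19.5% of their length.

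Ndufab1, the mitochondrial acyl carrier protein itself, went the other way. It had 672, 790.3 and 1154 normalized counts in R98S and 466, 644 and 942 in WT, with overlap, and differed by 0.37 (SE 0.14, adjusted p = 0.0572). Ndufs5, an accessory subunit on the intermembrane side, had 513, 800.2 and 887 in R98S and 424, 472 and 776 in WT. Ndufs5 differed by 0.53 (SE 0.14, adjusted p = 0.0126), with 5 R98S libraries above all WT libraries. Ndufb6, of the membrane arm, had 248 (the lowest), 431 and 636 in R98S and 183, 263 and 463 in WT. It had the largest increase, 0.62 (SE 0.20, adjusted p = 0.0324), but 39.0% of its exon length overlaps Smim27 on the opposite strand. Ndufa1, a small membrane subunit encoded on chromosome X, had 859, 1192 and 1388 in R98S and 732, 956 and 1171 in WT, and differed by 0.33 (SE 0.11, adjusted p = 0.0359). For Ndufs5, 31.1% of its exonic stretches of 50 bases are found in another gene as well, so its reads may be shared.

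In complex II, only a membrane anchor was called. Sdhc had 1274, 1856 and 2025 normalized counts in R98S and 937, 1417 and 1693 in WT. Of the 9 R98S libraries 5 lay above all WT libraries, and the log2 difference was 0.36 (SE 0.13, adjusted p = 0.0588). The other anchor, Sdhd, had 2647, 2769.5 and 3428 in R98S and 2661, 3026 and 3466 in WT, almost the same range, and differed by -0.09 (adjusted p = 0.447). The flavin subunit Sdha and the iron-sulfur subunit Sdhb differed by 0.03 and 0.02 (adjusted p = 0.793 and 0.923).

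Complex III held the clearest separation between the genotypes. Uqcrfs1 (chr13:30540308-30545362, minus strand), the Rieske iron-sulfur protein, had 1408, 1622 and 1779 normalized counts in R98S and 1898, 2034 and 2135 in WT. Every R98S library lay below every WT library. The libraries were apart, in either direction, for 1 of the 59 genes and for 3.53% of all genes tested. The log2 difference was -0.33 (SE 0.07, adjusted p = 0.00255). The other called genes of complex III were higher in R98S. Uqcrh, the hinge protein beside cytochrome c1, had 3249, 4367 and 5553 in R98S and 2692, 3493 and 3967 in WT. Of the R98S libraries 6 were above all WT libraries, and Uqcrh differed by 0.37 (SE 0.11, adjusted p = 0.0226). Uqcrc2, a core protein, had 3295, 4058 and 4557 in R98S and 2754, 3509 and 3629 in WT, with 8 of 9 R98S libraries above the WT range, and differed by 0.24 (SE 0.08, adjusted p = 0.0427). Uqcrq, a small subunit, had 1087, 1652 and 2195 in R98S and 727, 995 and 1842 in WT, and differed by 0.49 (SE 0.19, adjusted p = 0.0714). Uqcrc1, the other core protein, had 3238, 3941 and 4253 in R98S and 2286, 3129 and 4466 in WT and was not called (0.22, adjusted p = 0.2). Exons of Uqcrc2 overlap an opposite-strand gene over 19.7% of their length.

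Complex IV was nearly level in total mRNA, and only Cox4i1, its largest nuclear-encoded subunit, was called. Cox4i1 had 4757, 5399.7 and 5656 normalized counts in R98S and 5430.3, 6358 and 6919 in WT. Of the 8 WT libraries 6 lay above all R98S libraries, and the difference was -0.21 (SE 0.07, adjusted p = 0.0289). Cox5b, on the matrix side, had 1559, 2561 and 2869 in R98S and 1617, 1918 and 2669.9 in WT and differed by 0.26 (adjusted p = 0.128). Ndufa4 had 2718, 3178 and 3793 in R98S and 2752, 3591 and 4279 in WT. It differed by -0.18 (adjusted p = 0.212), and by -0.20 (adjusted p = 0.0704) with the block.

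**Figure D2:**
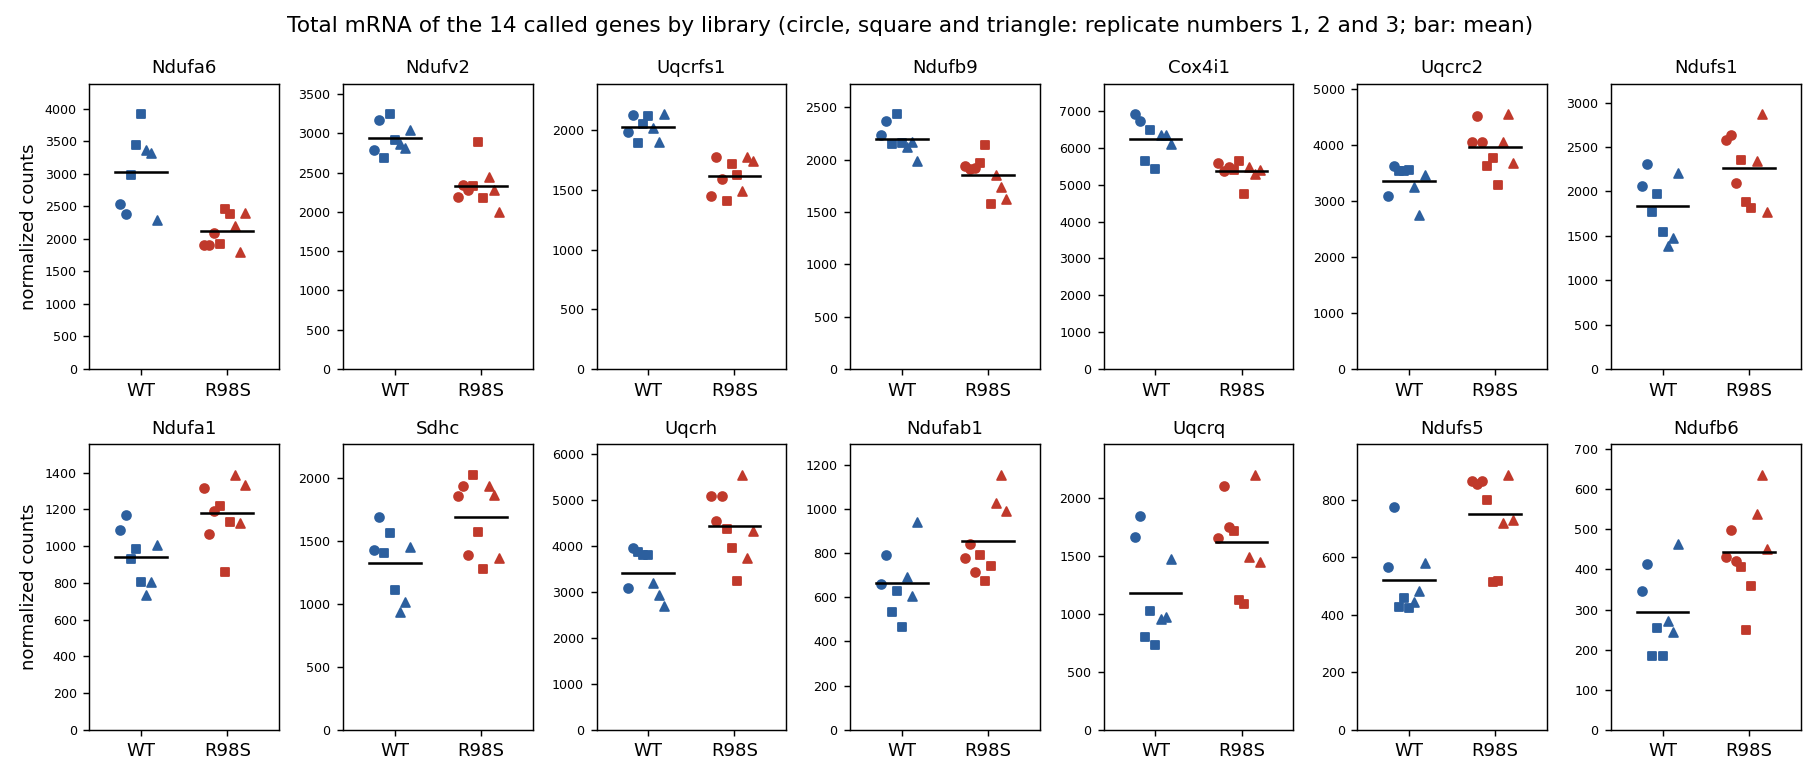
Normalized counts in total mRNA of the 14 called genes, 1 panel a gene, with WT libraries on the left and R98S libraries on the right. Circles, squares and triangles are replicate numbers 1, 2 and 3, bars are means, and the groups are fully apart only for Uqcrfs1.

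The clone is the level at which the genotype was set, so the 3 clone means of R98S were also compared with the 3 of WT. They did not overlap for 19 of the 59 genes, 10 with R98S above and 9 below, against 40.1% of all genes tested. Of the 14 called genes 13 were among the 19. Tested on clone means, 9 genes were called, 6 higher (Ndufa1, Ndufab1, Ndufb6, Ndufs5, Uqcrh and Uqcrq) and 3 lower (Ndufa6, Ndufv2 and Uqcrfs1), where 28.1% of all genes were called, 13.2% higher and 14.9% lower. The 3 lower genes were also the only ones called without the libraries of number 3 (12% of all genes, 5.99% higher and 6.03% lower). Without clone 11 the 6 called genes were Ndufs5 and the 5 lower genes (17% of all genes, 7.68% higher and 9.34% lower). Without clone 28 the 6 were Ndufs5, Uqcrh, Ndufa6, Ndufb9, Ndufv2 and Uqcrfs1 (19.9% of all genes, 9.44% higher and 10.4% lower).

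In polysomal RNA no OXPHOS gene was called without the block, while 13.5% of all 10707 genes tested were (7.66% higher and 5.87% lower). limma gave 0 of 59 at an unadjusted p under 0.05 (2326 of all genes), and edgeR and DESeq2 on the recovered reads called 0 as well (13.8% and 17.9% of all genes). The spread was wide, with a median standard error of 0.44. The differences still leaned downward, with 49 of 59 below 0 and a median of -0.28 (-0.02 over all genes). By complex the medians were -0.26, -0.23, -0.22 and -0.44 for I, II, III and IV. The overall median was -0.13 without WT clone 28 and -0.74 without WT clone 29. The smallest p was that of Ndufv1, which had 1938, 2363 and 3438 normalized counts in R98S and 2158, 3045 and 5210.0 in WT, a difference of -0.36 (SE 0.20, adjusted p = 0.318). Cox5a, on the matrix side of complex IV, had 963, 1438 and 5559 in R98S and 1030.2, 3988 and 6215 in WT, a difference of -0.61 (adjusted p = 0.58). Averaged by clone, R98S lay wholly below WT for 5 of the 59 genes and wholly above for 0 (27.2% of all genes were apart in either direction). The clone means hold the replicate numbers in unequal shares, with WT clone 36 under number 3 alone. The single libraries were apart for 0 of 59 (4.96%).

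Replicate number 3 supplied 3 of the 8 R98S and 3 of the 6 WT polysomal libraries, and most of the 59 genes were higher under that number in both genotypes. Within numbers 1, 2 and 3 the median genotype difference was 0.30, -0.30 and -0.10. With the replicate number as a block the median standard error was 0.16 and the median difference -0.08, with 37 of 59 below 0. The medians of complexes I to IV were then -0.06, -0.18, -0.14 and -0.17. With the block 10 genes were called, 4 higher and 6 lower, which is 16.9% beside 30.9% of all genes (15.2% higher and 15.7% lower). Tests on clone means, 3 against 3, called 0 of the 59 (7.01% of all genes). A fit with the clone as a random effect also called 0 (16.8% of all genes).

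The 6 lower genes on polysomes came from all 4 complexes. Within number 3, Ndufv2 had 7016, 9515 and 7602 normalized counts in R98S clones 11, 13 and 35 and 11845, 11985 and 12953 in WT clones 28, 29 and 36. All 3 WT libraries lay above all 3 R98S libraries, and the blocked difference was -0.55 (SE 0.13, adjusted p = 0.00743). Sdhd had 7420 (clone 11), 9215 and 7639.7 in R98S and 11699, 11300.0 and 12539 in WT, and Uqcrfs1 4300.2, 5673 and 4416 in R98S and 6584, 5962 and 7738 in WT. Both were again fully apart within that number, with blocked differences of -0.46 (SE 0.13, adjusted p = 0.0183) for Sdhd and -0.40 (SE 0.13, adjusted p = 0.0324) for Uqcrfs1. Ndufa4, a late-joining subunit of complex IV, had 16473, 25283 and 17655 in R98S and 30125, 30051 and 29255 in WT. Its blocked difference was -0.55 (SE 0.18, adjusted p = 0.0367). Ndufa5 and Ndufa12, accessory subunits of the peripheral arm of complex I, had blocked differences of -0.64 (SE 0.18, adjusted p = 0.0175) and -0.45 (SE 0.15, adjusted p = 0.0471).

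Under numbers 1 and 2 Ndufv2 was lower than in any library of number 3. It had 3307, 1984 and 2624 normalized counts in the 3 R98S libraries of number 1 against 2885 in the only WT library, of clone 29. Under number 2 it had 2152 and 2147 in R98S clones 13 and 35 and 3842 and 3379.9 in WT clones 28 and 29. The genotypes overlapped under number 1 and were apart under number 2.

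The 4 higher genes on polysomes were Ndufs5, Ndufv3, Ndufa1 and Uqcrh. Ndufs5 had 2157, 3025 and 2228 normalized counts in R98S clones 11, 13 and 35 of number 3 and 1672, 1606 and 1775 in WT clones 28, 29 and 36. Under number 2 it had 725.3 and 741.3 in R98S clones 13 and 35 and 893.8 and 466.2 in WT clones 28 and 29, so the genotypes were apart under number 3 and overlapped under number 2. The blocked difference was 0.59 (SE 0.18, adjusted p = 0.0225), close to its difference in total mRNA. Ndufv3, an accessory subunit of complex I, differed by 0.42 (SE 0.12, adjusted p = 0.0193) on polysomes and by -0.08 (adjusted p = 0.697) in total mRNA with the same block. The total mRNA value averages numbers of opposite direction. Under number 1 Ndufv3 had 2119 to 2531 normalized counts in R98S and 2008 and 2086 in WT. Under number 2 it had 2099 to 2258 in R98S and 3175 to 3383 in WT, and under number 3 the genotypes overlapped. Ndufa1 differed by 0.44 (SE 0.17, adjusted p = 0.0735) and Uqcrh by 0.43 (SE 0.17, adjusted p = 0.0759).

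The 4 higher calls were lost without WT clone 29, which gave the only WT polysomal library of number 1, and 3 of the 6 lower calls (Ndufa4, Ndufa12 and Uqcrfs1) were lost without WT clone 28. Ndufa1 and Uqcrh were also lost without R98S clones 11 and 35 and WT clone 36, Uqcrh without clone 13, Ndufa12 without clones 35 and 36, and Uqcrfs1 without clone 35. Without clone 29 the blocked test called 16 genes, 0 higher and 16 lower, the 6 lower genes among them, where 23.9% of all genes were called, 11.6% higher and 12.3% lower, and the median was -0.32. Without WT clone 28 it called 10, 7 higher and 3 lower, where 32.1% of all genes were called, 16.3% higher and 15.8% lower, and the median was 0.06. Without only the clone 29 library of number 1 it called 11, Ndufv3 higher and 10 others lower (25.9% of all genes, 12.4% higher and 13.5% lower). Ndufv2, Ndufa5 and Sdhd were called lower without each of the 6 clones in turn. In number 3 alone, 3 libraries against 3, 10 genes were called, Ndufs5 higher and 9 others lower (20.9% of all genes, 10.1% higher and 10.8% lower). A test of whether the genotype difference varied with the number called 0 of the 59 on polysomes (0.028% of all genes).

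The ratio of polysomal RNA to total mRNA in the same culture, as log2 polysomal minus log2 total and here called TE, leaned downward in R98S without a call. limma called 0 of 59 without and 0 with the block (0.0376% of all 10627 genes tested without it, and 0.47% with it, 0.386% higher and 0.0847% lower). Of the 59, 0 and 4 had an unadjusted p under 0.05 (633 and 1313 of all genes). edgeR and DESeq2, as the interaction of genotype and fraction in the recovered reads, called 0 as well (0.0376% and 0.32% of all genes). The median difference was -0.33, with 56 of 59 below 0, and the medians of complexes I to IV were -0.29, -0.33, -0.39 and -0.40. With the block the median was -0.08, with 42 of 59 below 0, and the medians by complex were -0.05, -0.14, -0.15 and -0.08. Without WT clone 28 the blocked median was 0.09, with 20 of 59 below 0, so that the direction of the lean turned. Without the cultures of number 3 the unblocked median was 0.01, with 28 of 59 below 0, so that the lean was absent. The median over all genes was 0.01 without the block. The 2 tables were normalized separately, so that a TE has meaning only beside the TE of other genes or cultures.

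The 4 genes with an unadjusted p under 0.05 in the blocked test, where 1313 of all 10627 genes had one, lay on both sides of 0. Ndufb9 differed by 0.44 (adjusted p = 0.187), Ndufv3 by 0.45 (adjusted p = 0.229), Ndufa6 by 0.31 (adjusted p = 0.377) and Sdhd by -0.38 (adjusted p = 0.39). Ndufb9 and Ndufa6 are lower in total mRNA, and on polysomes their blocked differences were 0.15 and -0.10 (adjusted p = 0.359 and 0.598).

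The TE calls turned on WT clone 29. Its culture of number 1 had the lowest median TE of the 59 genes, -1.40 relative to each gene's mean over cultures, where the 3 R98S cultures of that number had -0.58, -0.92 and -0.59. The median genotype difference of the 59 was therefore 0.57 in number 1, and it was -0.24 in number 2 and -0.31 in number 3. Without that culture the blocked test called 5 genes, all lower (Ndufa5, Ndufa12, Ndufs8, Sdhd and Cyc1), where 5.67% of all genes were called, 2.77% higher and 2.91% lower, and the median was -0.31. Without clone 29 altogether it called 14 of the 59, all lower, where 7.56% of all genes were called, 3.53% higher and 4.03% lower. The median was then -0.43 with 55 of 59 below 0, and -0.36, -0.39, -0.55 and -0.51 in complexes I to IV. Named members in that test were Ndufv1 at -0.83 (adjusted p = 0.0493), Uqcrc1 at -0.68 (adjusted p = 0.0523), Cox5a at -0.86 (adjusted p = 0.0571), Ndufa5 at -0.79 (adjusted p = 0.06) and Sdhd at -0.70 (adjusted p = 0.063). In that same culture the total mRNA median of the genes was the highest of all libraries, 0.32, and Rpl10 stood at 5715 normalized counts, and their part in the TE result was not tested. Without each other clone in turn limma called 0.

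Cyc1, the cytochrome c1 of complex III, was the only gene of the 59 that passed the test of whether the TE difference between the genotypes varied with the replicate number (1 of 59, against 0.772% of all genes). In that test 18 of the 59 had an unadjusted p under 0.05, as did 1565 of all 10627 genes. For Cyc1 the values by culture follow. Its log2 TE was 0.26, 0.17 and 0.21 in the R98S cultures of number 1 and -0.75 in the WT culture of clone 29. Under number 2 it was 0.48 and 0.41 in R98S and 1.17 and 0.52 in WT, and under number 3 it was 1.18, 1.03 and 1.08 in R98S and 2.18, 2.16 and 1.53 in WT. R98S lay above WT under number 1 and below it under numbers 2 and 3, with an adjusted p of 0.0801 by limma, and number 1 had a single WT culture.

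The largest difference among the polysomal libraries was between replicate numbers and not between genotypes. This comparison was chosen after the values were seen. Same-numbered libraries deviated together, and number 3 is a single number. The p-values and standard errors given for this comparison therefore measure the spread between libraries and not between numbers. Of the 59 genes, 55 were higher under number 3 than under the mean of numbers 1 and 2 in a limma model with the genotype as a term, and 1 was lower, where 35.1% of all genes were higher and 36.3% lower. The median was 1.58 on the log2 scale, 2.99-fold, against -0.03 over all genes. In 52 of the 59 genes all 6 libraries of number 3 lay above all 8 others, which held for 17.1% of all genes. In total mRNA 2 were higher, Ndufab1 and Ndufc2, and 6 lower (8.2% and 5.33% of all genes), with a median of -0.04, and in 0 of 59 were the libraries apart (0.162% of all genes above). Between numbers 1 and 2 the median difference (2 minus 1) was -0.23 in total mRNA, with 22 of 59 called (35.8% of all genes). On polysomes it was 0.06, and limma called 0 of 59 (0 of all 10707 genes). In TE it was 0.31, with 2 of 59 called (1276 of all 10627 genes).

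**Figure D3:**
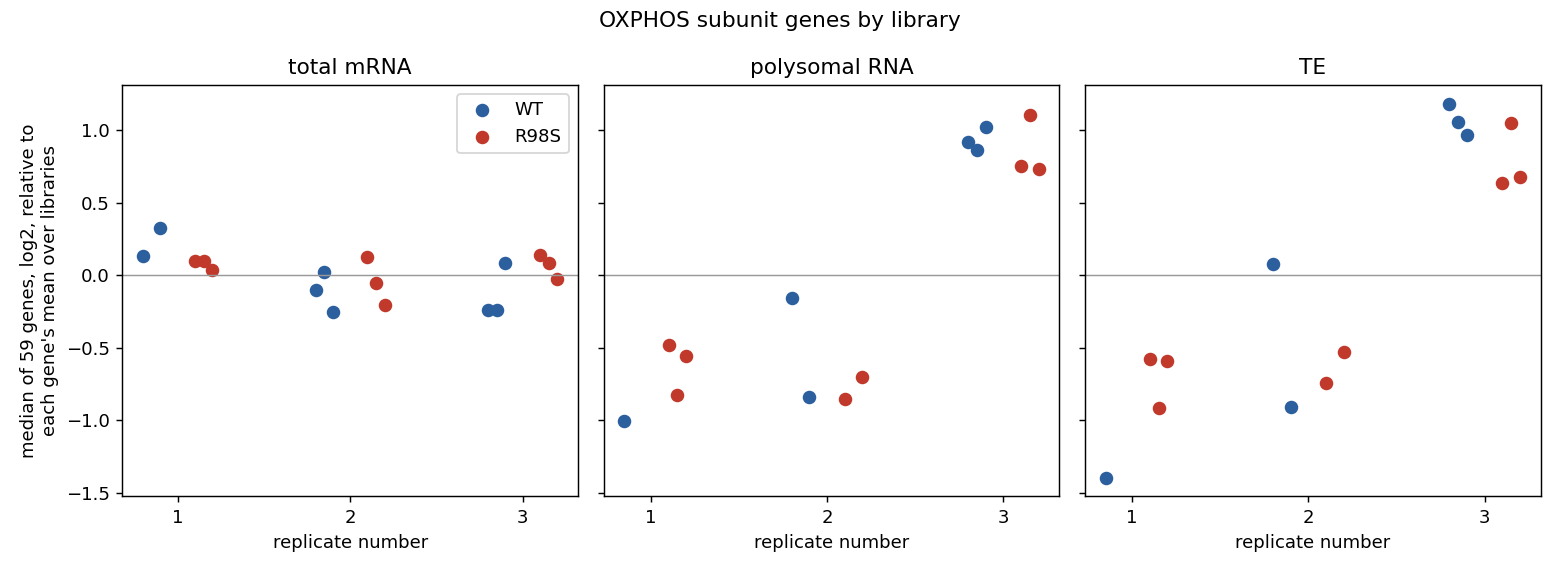
Each point is a library (a culture for TE), plotted as the median over the 59 genes of its log2 value relative to each gene's mean over libraries, by replicate number and genotype. Polysomal medians were -1.01 to -0.16 under numbers 1 and 2 and 0.73 to 1.11 under number 3, while those of total mRNA stayed between -0.26 and 0.32.

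Both genotypes showed it. Taken alone, the R98S libraries gave 55 genes higher and 0 lower with a median of 1.59 (30.5% and 31% of all genes), and the WT libraries 54 higher and 2 lower with a median of 1.68 (27.6% and 25.9% of all genes). In TE, 55 genes were higher and 1 lower (32% and 35.2% of all genes), with a median of 1.62, and in 43 of 59 the 6 cultures of number 3 were above all others (13.9% of all genes). With a correction for transcript length 40 were higher and 7 lower in TE (27% and 27.9% of all genes), with a median of 0.46. What the replicate number stands for is not given in the sources used here.

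Complex IV had the largest median difference between the numbers. All 11 of its genes were higher under number 3, with a median of 2.07 (4.21-fold). Cox7b, a small membrane subunit, had mean polysomal counts of 3537, 2966 and 21535 under numbers 1, 2 and 3, with single libraries from 2632 to 4600.4 under numbers 1 and 2 and from 15145 to 25467 under number 3. It had the largest difference, 2.70 (6.51-fold, SE 0.15, adjusted p = 8.04e-09). Ndufa4 had means of 3997, 4534 and 24807 (5.63-fold) and Cox7c of 909, 958 and 4661 (5.01-fold). Cox4i1 had means of 4755, 5408 and 14841 (2.95-fold), and Cox8a, a short subunit with the smallest difference in complex IV, of 4341, 4895 and 7354 (1.62-fold).

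In complex I, 33 of 35 were higher, with a median of 1.57. The 29 accessory subunits were all higher (median 1.6), and of the 6 core subunits 4 were (median 1.26). Ndufb6 had means of 421, 427 and 2252 under numbers 1, 2 and 3 (5.64-fold), and Ndufs4, an accessory subunit mutated in Leigh syndrome, of 1121, 1046 and 5291 (4.90-fold). Ndufs1 and Ndufv1, core subunits of the NADH-oxidising module, were not called, with 1319, 1599 and 1267 (-0.26, adjusted p = 0.261) and 2662, 3417.5 and 2541 (-0.28, adjusted p = 0.153). Ndufv2, of the same module, differed by 1.79 (SE 0.13, adjusted p = 2.41e-08).

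Complex II was divided. Sdhd had means of 2882, 3554 and 9969 under numbers 1, 2 and 3 (2.99-fold), Sdhc of 1803, 1786 and 4908 (2.83-fold) and Sdhb of 1639.9, 1598 and 4215 (2.53-fold). Sdha, the largest subunit, had 2938, 3246 and 2146 and was the only gene of the 59 called lower, by -0.56 (SE 0.15, adjusted p = 0.00326). In complex III, 8 of 9 were higher with a median of 1.52. Uqcrb, a small subunit, had 1541, 1435 and 8327 (5.43-fold), while Uqcrc1 had 4256, 4982 and 5648 (0.28, adjusted p = 0.123). Of the 50-base stretches of Uqcrb, 43.4% are found in other genes too.

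**Figure D4:**
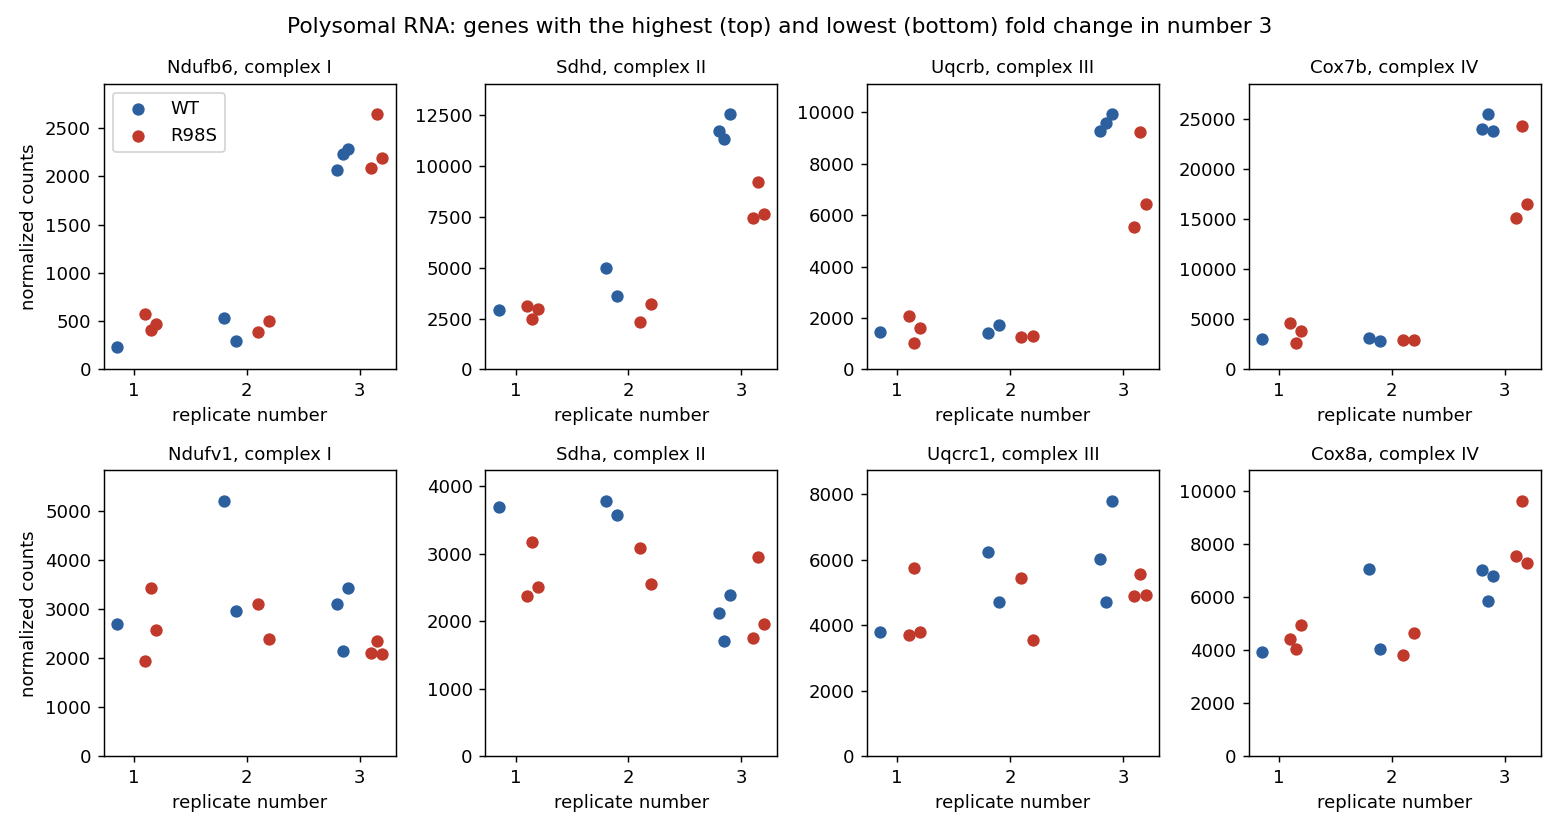
Polysomal normalized counts of each library by replicate number, WT and R98S side by side, for the gene of each complex with the highest (top) and lowest (bottom) fold change under number 3. Cox7b rose from at most 4600.4 to at least 15145, while Sdha was lower under number 3 and Ndufv1 and Uqcrc1 overlapped.

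The 4 genes that were not called higher, Ndufs1, Ndufv1, Sdha and Uqcrc1, have coding sequences of 1392 to 2181 bases, while Uqcrc2 and Ndufv3, of 1359 and 1404 bases, were higher by 0.76 and 1.22. Over the 59 genes the change under number 3 on polysomes correlated with log2 coding length at Spearman's rho = -0.60, and over 9876 genes at -0.62. These are correlations across genes of the same libraries, genes are not independent replicates, and the values are descriptions. The 44 members with a coding length under 600 bases had a median change of 1.69, where other genes of that length had 1.13. From 600 to 1200 bases the 9 members had 1.27 against 0.40, from 1200 to 1800 bases the 4 members had 0.52 against -0.14, and from 1800 to 3000 bases the 2 members had -0.41 against -0.45. In total mRNA rho over the members was 0.02. With a correction for transcript length 43 of the 59 were called higher and 6 lower (30.1% and 32.3% of all genes), and the median was 0.55 (-0.04 over all genes).

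**Figure D5:**
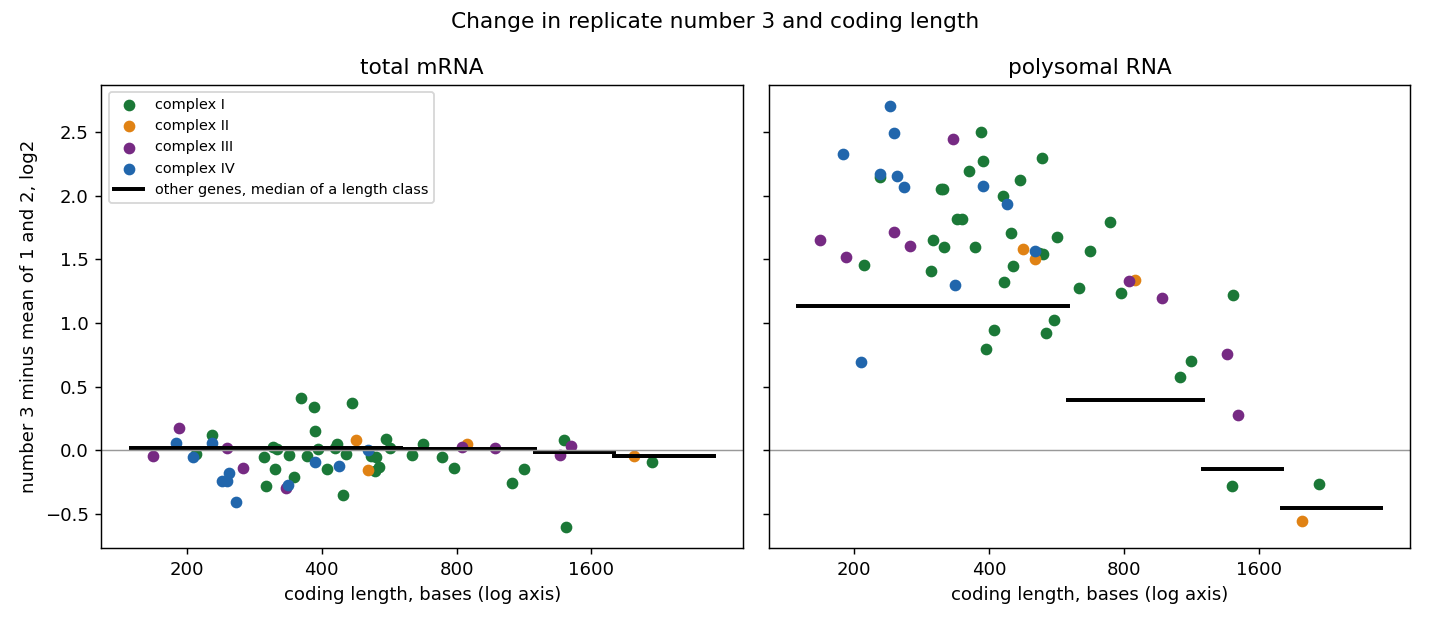
Change under replicate number 3 against the mean of numbers 1 and 2 (log2) for the 59 genes by coding length on a log axis, coloured by complex, in total mRNA and polysomal RNA. Black bars are medians of the other genes in a length class, which fall from 1.13 under 600 bases to -0.45 between 1800 and 3000 bases in polysomal RNA and stay near 0 in total mRNA.

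For the genotype difference rho with coding length over the members was -0.03 in total mRNA and 0.15 on polysomes (-0.07 with the block). A correction for transcript length, made within each library over all genes, moved the blocked polysomal median from -0.08 to -0.18 and the calls to 4 higher and 18 lower (34.5% of all genes, 14.5% higher and 20% lower), and the blocked TE median from -0.08 to -0.16. The 23 genes with a promoter motif had a median change under number 3 of 1.57 on polysomes and the 26 without of 1.75. Their median genotype differences were both 0.06 in total mRNA, and -0.23 with and -0.36 without a motif on polysomes. No difference between these groups was tested.

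The level of the genes, per kilobase of the longest coding transcript, was highest in complex IV. In total mRNA of WT the medians were 999.6 normalized counts per kilobase for complex I, 1100.3 for II, 2038 for III and 3837 for IV, and in R98S 1016, 1115, 2277 and 4041. The highest was Cox8a at 11584 ± 1583 (SD, n = 8), followed by Cox4i1 at 8177 ± 665 and Uqcrh at 6251 ± 909. The lowest were Ndufab1 at 191 ± 42.8 and Ndufb2, a small accessory subunit, at 55.7 ± 11.0, whose annotated longest transcripts, 3479 and 4371 bases, are far longer than their coding sequences. In polysomal RNA of WT the medians of the complexes were 1117, 1337, 2221 and 2996 in the 3 libraries of numbers 1 and 2, and 3196, 2845, 4739 and 12194 in the 3 of number 3.

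Other genes of the pathway were read from lists of known members. Of 11 tested subunits encoded in mitochondrial DNA, 4 were higher and 0 lower in total mRNA, with a median of 0.38, and with the block 7 were higher (18.5% of all genes). Within numbers 1, 2 and 3 the median was 0.51, 0.61 and 0.08. mt-Cytb, the cytochrome b of complex III, differed by 0.47 (SE 0.14, adjusted p = 0.0234) and mt-Nd4, of the proton-pumping arm of complex I, by 0.40 (SE 0.12, adjusted p = 0.0238). On polysomes limma called 0 of 9, with 1 at an unadjusted p under 0.05, and 3 higher with the block (15.2% of all genes). A poly(A) kit captures mitochondrial transcripts only in part, and mitochondrial mRNA is not translated on cytosolic ribosomes. Of 17 tested genes of ATP synthase and its inhibitor 1 was higher and 1 lower in total mRNA, Atp5e at 0.30 (adjusted p = 0.0969) and the inhibitor Atpif1 at -0.25 (adjusted p = 0.0794), and 15 of the 17 were higher on polysomes under number 3 (35.1% of all genes) with a median of 1.81. Of 35 tested assembly factors 7 were higher and 1 lower in total mRNA. Among them were Tmem126b, of the complex I assembly complex, at 0.54 (SE 0.12, adjusted p = 0.00399), and Taco1, which promotes synthesis of a mitochondrial complex IV subunit, at 0.41 (SE 0.11, adjusted p = 0.0138). On polysomes Ttc19, which acts on complex III, was higher by 0.87 (SE 0.23, adjusted p = 0.0239).

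Of 8 tested electron carriers and other isoforms 4 were lower in total mRNA. Etfdh, which feeds electrons from fatty acid oxidation into ubiquinone, differed by -0.41 (SE 0.11, adjusted p = 0.015), and Cox6a2, the muscle isoform of a complex IV subunit, by -2.79 (SE 0.80, adjusted p = 0.0177). The median standard error of the 8 was 0.11. On polysomes 7 of them passed the filter on low values and Cox6a2 did not, so its difference is that of a low gene. Of 15 tested regulators 0 were higher and 2 lower, among them Gabpb2, a partner of GABP, at -0.52 (SE 0.15, adjusted p = 0.0198). On polysomes limma called 0 of the 15 regulators without the block (2 at an unadjusted p under 0.05), and with the block 1 higher and 3 lower (15.2% and 15.7% of all genes). Tfam, which packages mitochondrial DNA and helps start its transcription, differed with the block by -0.51 on polysomes (adjusted p = 0.00441) and by -0.14 in total mRNA (adjusted p = 0.222). Of 14 citrate cycle enzymes limma called 0 in total mRNA, with 0 at an unadjusted p under 0.05. On polysomes 0 of the 14 were called by limma without the block (3 at an unadjusted p under 0.05), and with the block 3 were lower (15.7% of all genes), Cs, Idh3g and Mdh2, at -0.37, -0.30 and -0.38 (adjusted p = 0.062, 0.0657 and 0.0645), and the median was -0.24. The share called among all genes, 14.5% higher and 15.8% lower in total mRNA, stands beside these counts too.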

How the data were processed

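Total mRNA and polysomal RNA of 6 Ba/F3 clones were sequenced with a poly(A)-selecting, strand-keeping kit. Per the labels and the study's methods, the authors trimmed the reads, removed ribosomal and transfer RNA with Bowtie2, aligned to GRCm38 (mm10) with TopHat2 2.0.11, counted reads in exons with HTSeq, and deposited 1 table per fraction of signal values, the read counts divided by DESeq2 size factors. The strand setting and the annotation used for counting are not given in the sources used here. The deposited values are whole reads divided by 1 number per library, and whole reads were recovered for 100% of values (tolerance 0.001).

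Groups came from the labels. Genotypes were compared with limma 3.58.1 (R 4.3.3), with a mean-variance trend, on log2(value + 1) of the genes whose mean reached 10 normalized counts, two-sided, with Benjamini-Hochberg adjustment over all genes tested, and were called at an adjusted p under 0.1. All log2 differences and adjusted p-values are from limma unless another tool is named, and since they are on the log2(value + 1) scale they understate the change of low genes. The study itself used DESeq2 and a separate model of translation, while TE here is the log2 polysomal minus the log2 total value of a culture. Same-numbered libraries deviated together (correlation of their deviations for numbers 1, 2 and 3, 0.62, 0.55 and 0.48 for the total mRNA libraries, 0.70, 0.67 and 0.87 for the polysomal libraries and 0.67, 0.54 and 0.81 for TE), so the fit with the replicate number as a block is given beside the results. edgeR 4.0.16 and DESeq2 1.42.0 on the recovered reads, other scalings, filters and pseudocounts, corrections for GC content and length, clone means and leaving out libraries, clones and numbers were alternatives. The script was tested on simulated data.

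Gene positions, lengths and overlaps came from GENCODE on GRCm38, and promoters from RefSeq (GRCm38.p6). Genes named by rule are, in each complex, the 2 genes of smallest p for total mRNA, the 2 for polysomal RNA and the 1 for TE, all without the block, and at most 3 genes of each other list. Other genes were named after their values were seen. The 59 genes, the lists and the alternatives were chosen with earlier results of these data known. Columns of no sample numbered 0.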

Additional observations from a re-analysis of the deposited data

Results flagged for a closer look

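In 90 groups of libraries of the named genes, the highest or lowest library was compared with the others by Dixon's test at 95%, which chance passes in about 1 of 20 groups, and 4 passed. Ndufv2 in total mRNA of R98S had 2893 normalized counts in clone 13 with number 2, where the next library had 2444. Cox4i1 in total mRNA of R98S had 4757 in clone 35 with number 2, where the next had 5307. Cox5b in total mRNA of WT had 2669.9 in clone 29 with number 1, where the next had 2102. Ndufs1 in polysomal RNA of R98S had 2221 in clone 13 with number 3, where the next had 1396. The R98S libraries of number 2 named here are the ones that stood nearest to WT over all genes.

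The genotype difference in TE of Cyc1 varied between replicate numbers with an adjusted p of 0.0801 in limma's test of the interaction, at log2 differences of 0.96, -0.40 and -0.86 under numbers 1, 2 and 3.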

How the results depend on the processing

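The share of all genes called under the same setting stands in brackets. In total mRNA 14 genes were called (30.3%), and edgeR gave 12 (29.5%), DESeq2 14 (32%), TMM scaling 14 (30.4%), quantile normalization 16 (30.2%) and the replicate block 19 (38.4%). Clone means gave 9 (28.1%), and numbers 1, 2 and 3 alone gave 4 (12.3%), 1 (2.16%) and 3 (9.4%). Leaving out a replicate number gave 3 (12%, without number 3) to 11 (23.8%), a clone 6 (17% and 19.9%, without clones 11 and 28) to 15 (26.8%), a library 10 (26.4%) to 19 (34.8%, without WT clone 29 number 1), and a clone with the block 11 (26.6% and 25.6%) to 20 (37.2%). Ndufa6, Ndufv2 and Uqcrfs1 were lower under 50 of 53 alternatives each.

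In polysomal RNA 0 were called without the block (13.5%). The replicate block, which pairs libraries by number, gave 10 (30.9%), edgeR with the block 9 (30.6%), the block with a GC correction 14 (37.7%) and with a length correction 22 (34.5%), 4 higher and 18 lower, and number 3 alone 10 (20.9%). Leaving out a number gave 0 to 3 (19%, without number 3, where Ndufv3 was higher and Ndufs1 and Sdha lower), and a clone 0 to 1 (12.4%, without clone 29). With the block, leaving out a clone gave 6 (23.1%, without clone 35) to 16 (23.9%, without clone 29). Leaving out a WT clone 29 library with the block gave 9 (26.5% and 28.4%, numbers 2 and 3) to 11 (25.9%, number 1). For TE 0 were called under every alternative run without the block, and with the block on all cultures. With the block, leaving out a clone gave 0 to 14 (7.56%, without clone 29) and a WT clone 29 culture 0 to 5 (5.67%, number 1). The cause was not tested. The count of genes higher under number 3 stayed within 1.5 times for polysomal RNA and TE, and was not run under alternatives for total mRNA. No named gene changed direction past the threshold.

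Number 1 holds a single WT polysomal library, so it was not fitted alone for polysomal RNA or TE, 1 total mRNA library was removed by its profile, and clones and genotype cannot be separated further than 3 against 3. Libraries of 1 clone share that clone, so p-values over libraries are too small where clones differ.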
